A study of Mus musculus with 8 samples.

Results

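The pancreatic lipases and amylases described here are 8 of the 19945 genes in the deposited count table, *Pnlip*, *Pnliprp1*, *Pnliprp2*, *Cel*, *Clps*, *Pla2g1b*, *Amy1* and *Amy2a2*, chosen by name. They were measured by droplet-based scRNA-seq of handpicked islets from wild-type mice that received vehicle or the focal adhesion kinase inhibitor PF562271 (FAKi). The inhibitor was dosed at 50 mg/kg, with 2 daily doses over 3 weeks, in mice aged 6 to 12 weeks at the start, and islets were collected 10 days after the last dose. Vehicle-treated mice were the controls. Each condition is 1 library of islets pooled from 5 mice, and the 4 samples deposited for it were taken as its sequencing lanes, so there is no biological replicate and no test between conditions. The acinar cells are those that remained with handpicked islets and may not stand for the whole exocrine pancreas.

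Values are CPM, the UMIs (unique molecular identifiers, counted transcript tags) of a gene summed over the cells of a class and library and scaled to 1000000 UMIs of that group. Levels carry exact Poisson 95% intervals, ratios of CPM exact conditional binomial intervals and shares Clopper-Pearson intervals. These intervals hold counting error alone, and variation between mice is not in them. The 3′ chemistry gives a transcript 1 tag whatever its length, so shares of the 8 genes were formed without a length correction. Classes are the authors' deposited annotation, in which the acinar cells form clusters 1 and 2 and the β-cells clusters 0, 1 and 10.

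The vehicle library held 3776 cells and 59514118 UMIs, the FAKi library 3183 cells and 57836783 UMIs, and 4 barcodes occurred in both. The 6 acinar markers (*Cpa1*, *Prss2*, *Cela1*, *Ctrb1*, *Ptf1a*, *Rbpjl*) summed to between 156254 and 290583 CPM in the acinar classes and to at most 10222 CPM elsewhere. The 4 ductal markers (*Krt19*, *Sox9*, *Cftr*, *Spp1*) summed to 12720 CPM (vehicle) and 13630 CPM (FAKi) in ductal cells. In the FAKi library, T cells (28 cells) and B cells (9 cells) had 134 and 756 CPM of their own 3 markers, against 1563 and 5406 CPM in the vehicle library, and the FAKi T cells held 456346 CPM of 5 β-cell markers (*Ins1*, *Ins2*, *Iapp*, *Mafa*, *Nkx6-1*), against 84250 CPM in vehicle T cells. The FAKi B cells held 769 CPM of the 4 macrophage markers, about as much as of their own, against 18.9 CPM in vehicle B cells. The data thus go against the T cell label in the FAKi library and leave the B cell label there in doubt, and results that pool these classes are given with and without them. Acinar cluster 1 also held much insulin RNA, with 157425 CPM (vehicle) and 252089 CPM (FAKi) of the same 5 markers, against 6983 and 9543 CPM in acinar cluster 2. Acinar cluster 1 cells were shallow, with a median of 1480 UMIs (vehicle, 161 cells) and 1140 UMIs (FAKi, 297 cells), against 7931 (86 cells) and 7280.5 (114 cells) in acinar cluster 2.

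Acinar cells make the enzymes that digest fat and starch, store them in zymogen granules and release them into the duct system. Pancreatic lipase, the product of *Pnlip*, cleaves dietary triglycerides and needs colipase, the product of *Clps*, to stay on fat droplets coated with bile salts. *Pnliprp1* and *Pnliprp2* encode its relatives, of which the first has little known activity on triglycerides and the second also acts on galactolipids and phospholipids. *Cel* encodes the bile salt-activated carboxyl ester lipase, which also cleaves cholesteryl and vitamin esters. *Pla2g1b* encodes the secreted pancreatic phospholipase, made as a proenzyme. *Amy1* and *Amy2a2* encode α-amylases, which cleave starch, and *Amy1* is best known from salivary gland and liver.

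In GENCODE vM21 (GRCm38, the assembly called mm10 in the submitters' processing notes), *Pnlip* (chr19:58652498-58681788), *Pnliprp1* (chr19:58728887-58744169) and *Pnliprp2* (chr19:58759719-58777534) lie next to each other on the forward strand. *Cel* is at chr2:28555795-28563403 and *Clps* at chr17:28558149-28560766, both on the reverse strand, and *Pla2g1b* is at chr5:115466262-115474722 on the forward strand. The amylases form an array on the reverse strand of chromosome 3, with *Amy2a2* at chr3:113345055-113356658, its copies *Amy2a3*, *Amy2a4* and *Amy2a5* down to chr3:113247178-113258837, and *Amy1* at chr3:113555710-113606699.

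How alike the amylases are is seen in their last 90 coding bases, stop codon included, taken from the GENCODE vM21 transcripts. Capitals mark the 9 positions at which *Amy1* and the others differ.
Amy2a2: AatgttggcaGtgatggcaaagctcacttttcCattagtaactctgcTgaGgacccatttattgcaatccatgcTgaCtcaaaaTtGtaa
Amy2a5: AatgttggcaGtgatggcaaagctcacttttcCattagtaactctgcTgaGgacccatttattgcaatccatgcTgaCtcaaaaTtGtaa
Amy1: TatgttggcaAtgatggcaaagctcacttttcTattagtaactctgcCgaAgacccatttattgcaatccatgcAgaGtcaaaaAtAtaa

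*Amy2a2*, *Amy2a3*, *Amy2a4* and *Amy2a5* had the same 1527 coding bases, with 0 differences, and *Amy1* differed from each at 24 of the last 300. A coding tag can therefore not be given to a single *Amy2a* copy. The copies *Amy2a2*, *Amy2a3* and *Amy2a4* also shared the last 300 bases of their annotated transcripts, which *Amy2a5* differed from at 82 positions and *Amy1* at 209. The counts of single *Amy2a* copies are thus uncertain, while *Amy1* can be told apart from them. Over all cells the table held 905 UMIs of *Amy2a5*, 142 of *Amy2a2*, 109 of *Amy2a4*, 106 of *Amy2a3* and 315 of *Amy1*, against 235875 of *Pnlip* and 286220 of *Clps*. The amylases were thus far under the lipases in this table. How reads that match several copies were counted is not given in the sources used here, and their part in the low amylase counts was not tested.

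The 8 genes were by far most abundant in acinar cells in both libraries. In acinar cluster 2 they summed to 161764 CPM (95% interval 161071 to 162460, 86 cells) in the vehicle library and 157115 CPM (156483 to 157750, 114 cells) in the FAKi library. Acinar cluster 1 held 107114 CPM (106037 to 108199) and 85832 CPM (85164 to 86505). The median acinar cluster 2 cell had 1243 (vehicle) and 1200 (FAKi) UMIs of the 8 genes, and the median acinar cluster 1 cell 169 and 84.

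Outside the acinar classes, the vehicle library ranged from 50.9 CPM in β-cell cluster 0 to 2439 CPM in β-cell cluster 1. In that library the order after the acinar clusters was β-cell cluster 1, pericytes, α-cells, B cells, ductal cells, endothelial cells, T cells, macrophages, fibroblasts, β-cell cluster 10, δ-cells and β-cell cluster 0. Counting intervals overlapped between pericytes and α-cells, between B cells and ductal cells, and among endothelial cells, T cells and macrophages. In the FAKi library the lowest class was again β-cell cluster 0 at 93.1 CPM, and the highest outside the acinar clusters were macrophages at 11463 CPM and fibroblasts at 7195 CPM, which rest on single droplets described below. Counting intervals of neighbours in that order overlapped between B cells and ductal cells and between β-cell cluster 10 (395 CPM) and δ-cells (364 CPM).

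**Figure D1:**
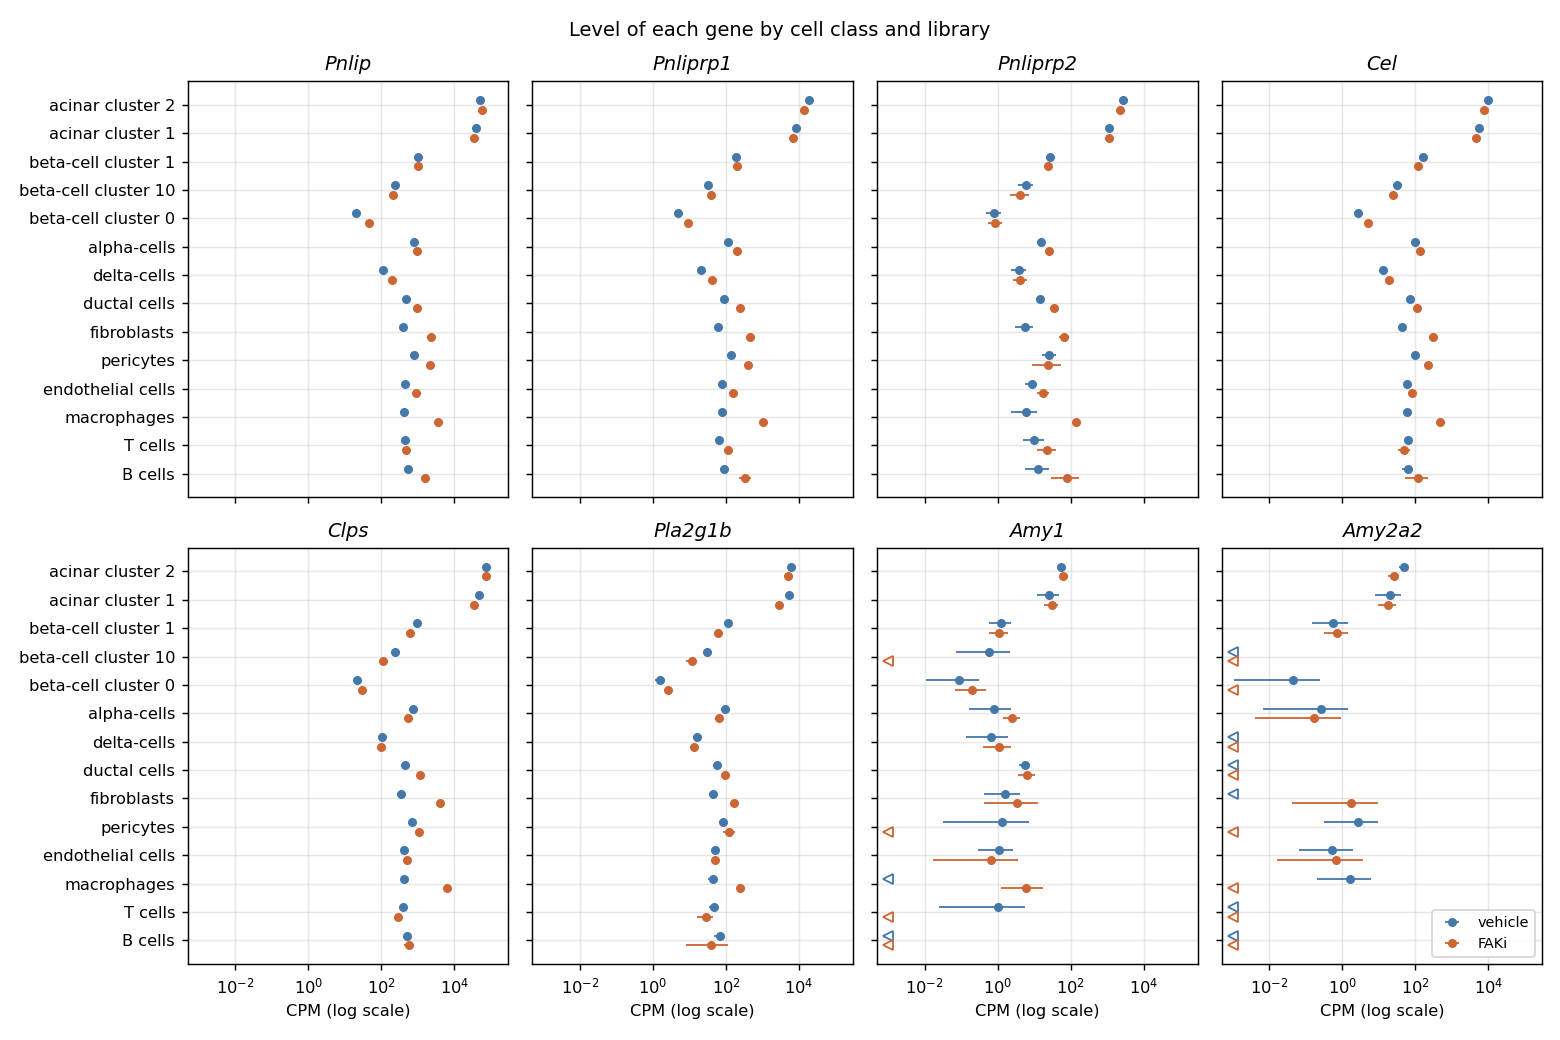
CPM (log scale) of each of the 8 genes in 14 cell classes of the vehicle and FAKi libraries, with exact Poisson 95% intervals. Open triangles at the left edge mark classes with no UMI of the gene, and the acinar clusters stand above all other classes for every gene.

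For *Pnlip*, acinar cluster 2 stood at 51323 CPM (vehicle) and 55513 CPM (FAKi) and acinar cluster 1 at 39385 and 34904 CPM. The other 12 classes ranged from 19.96 to 1036 CPM in the vehicle library and from 46.0 to 3476 CPM in the FAKi library. *Clps* stood at 73876 and 72762 CPM in acinar cluster 2 and at 48030 and 35240 CPM in acinar cluster 1. By these sums, the cofactor thus had more UMIs than the lipase it serves in 3 of the 4 acinar groups. It had about as many in acinar cluster 1 of the FAKi library, where the counting interval of their ratio held 1. Without its richest droplet, that group had 1.16 *Pnlip* UMIs per *Clps* UMI (1.14 to 1.18). By the median over cells, *Pnlip* made up 46.5% (vehicle) and 54.5% (FAKi) of the UMIs of the 2 genes in acinar cluster 2. In acinar cluster 1 it made up 50.8% and 60.0%. The phospholipase *Pla2g1b* had 5927 and 4925 CPM in acinar cluster 2 and 5140 and 2901 CPM in acinar cluster 1.

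By summed UMIs, the FAKi library differed from the vehicle library by less than 2-fold for every lipase in the acinar clusters. *Pla2g1b* in acinar cluster 1 was past 2-fold, at 0.452 times, when cells were thinned to 1000 UMIs, and at 0.499 times as a mean over cells. In acinar cluster 2 the summed level of the 8 genes was 0.971 times that of the vehicle library (0.966 to 0.977). *Pnlip* stood at 1.08 times (1.07 to 1.09) and *Clps* at 0.985 times (0.976 to 0.994). The 2 most abundant transcripts were therefore almost level between the libraries by summed UMIs. The less abundant lipases were lower in the FAKi library by the same sums. As a median over the cells of this cluster, *Clps* took 5.88% (vehicle) and 4.602% (FAKi) of a cell's UMIs. By that measure *Pnlip* took 5.47% and 5.76%, and *Pnliprp1* 1.59% and 1.44%. How near *Clps* was to the vehicle level thus depended on the weight of cells.

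*Pnliprp1* stood at 18283 CPM (vehicle) and 13997 CPM (FAKi), a ratio of 0.766 (0.751 to 0.780). *Cel* stood at 9591 CPM (vehicle) and 7607 CPM (FAKi), 0.793 times (0.773 to 0.814), *Pla2g1b* at 0.831 times (0.805 to 0.858) and *Pnliprp2* at 0.835 times (0.796 to 0.876). The ratio of *Pnliprp2* turned to 1.06 as a mean over cells, 1.12 with cells thinned to 1000 UMIs and 1.06 in cells under 1000 detected genes, and that of *Cel* to 1.04 in the last of these. For these 2 genes the direction thus depended on the weight and choice of cells.

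Of the amylases, *Amy1* had 69 UMIs (53.5 CPM) and 93 UMIs (61.7 CPM) in acinar cluster 2, a ratio of 1.15 (0.835 to 1.60). The pancreatic amylase copy *Amy2a2* had 61 UMIs (47.3 CPM) in the vehicle and 38 (25.2 CPM) in the FAKi library. *Amy2a5*, with the same coding sequence, went the other way, with 255 UMIs (198 CPM) and 401 UMIs (266 CPM), 1.34 times (1.15 to 1.58). *Amy2a4* had 49 and 27 UMIs and *Amy2a3* 31 and 37, so the copies did not move together and no direction for pancreatic amylase can be read from *Amy2a2*.

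In acinar cluster 1 the FAKi library held 0.801 times the summed vehicle level (0.791 to 0.812), and 0.903 times with the 5 β-cell markers, which differed as given above, left out of the totals. Set against the other secreted acinar proteins, the 8 genes had 25.0 UMIs per 100 in the vehicle (24.7 to 25.3) and 25.2 in the FAKi library (25.0 to 25.4), so against these the sum was level. *Pla2g1b* differed most, with 5140 and 2901 CPM, a ratio of 0.564 (0.530 to 0.601), followed by *Clps* at 0.734 times (0.720 to 0.748). *Cel* at 0.862 times (0.815 to 0.912), *Pnliprp1* at 0.875 (0.836 to 0.917) and *Pnlip* at 0.886 (0.868 to 0.905) were nearer to the vehicle level. Without the β-cell markers in the totals, *Pla2g1b* stood at 0.636 times and *Clps* at 0.827 times, while *Cel* (0.971), *Pnliprp1* (0.986) and *Pnlip* (0.998) were close to the vehicle level. *Pnliprp2* differed by less than the counting interval, with 1125 and 1093 CPM, and *Amy1* and *Amy2a2* had 9 and 7 UMIs in the vehicle and 22 and 13 in the FAKi library, too few for a direction. Cells of this class in the FAKi library were shallower. Thinned to 1000 UMIs the sum was at 0.777 times, *Pla2g1b* at 0.452, *Clps* at 0.692, *Cel* at 0.791, *Pnlip* at 0.863 and *Pnliprp1* at 0.969 times. By depth, the summed level was 69059 CPM (vehicle) and 66173 CPM (FAKi) in cells of up to 1000 UMIs and 113024 and 90839 CPM in cells of 1000 to 3000 UMIs.

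By summed UMIs, 0 of the 8 members passed a 2-fold ratio between libraries in an acinar class, while under other weights *Pla2g1b* did so in acinar cluster 1, as given above, and with cells thinned so did the sparse *Amy1* there (2.60) and *Amy2a2* in acinar cluster 2 (0.283). In acinar cluster 2, where 7 members had at least 100 UMIs over both libraries, 1.64% of 548 genes were more than 2-fold higher and 0.73% more than 2-fold lower. In acinar cluster 1, with 6 such members of 370 genes, it was 2.16% and 1.35%. The median log2 ratio over the 8 members was -0.26 in acinar cluster 2 and -0.18 in acinar cluster 1, against 0.06 and -0.03 over the genes counted.

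The other secreted acinar proteins were set beside them. Of 24 named, 22 had at least 100 UMIs, and their median log2 ratio was -0.02 in acinar cluster 2 (11 above and 11 under the vehicle level) and -0.38 in acinar cluster 1 (2 above, 20 under). In acinar cluster 2 the highest were the trypsinogen *Prss3* at 1.77 times, the chymotrypsin *Ctrc* at 1.62 and *Try5* at 1.35, and the lowest were *Dmbt1* at 0.712, the elastase *Cela2a* at 0.821 and the ribonuclease *Rnase1* at 0.834. In acinar cluster 1 the highest were *Try5* at 1.18, *Ctrc* at 1.15 and *Ctrl* at 0.999, and the lowest *Try10* at 0.536, *Try4* at 0.658 and *Cela2a* at 0.661. None of the 22 passed 2-fold in either direction, as for the members. Of 24 other lipases, phospholipases and glycosidases, 19 were in the table and only *Amy2a5* reached 100 UMIs in an acinar class. Among 6 acinar transcription factors, *Rbpjl* had 46 and 81 UMIs, *Ptf1a* 45 and 57 and *Xbp1* 167 and 163 in acinar cluster 2, and none reached 100 in acinar cluster 1.

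**Figure D2:**
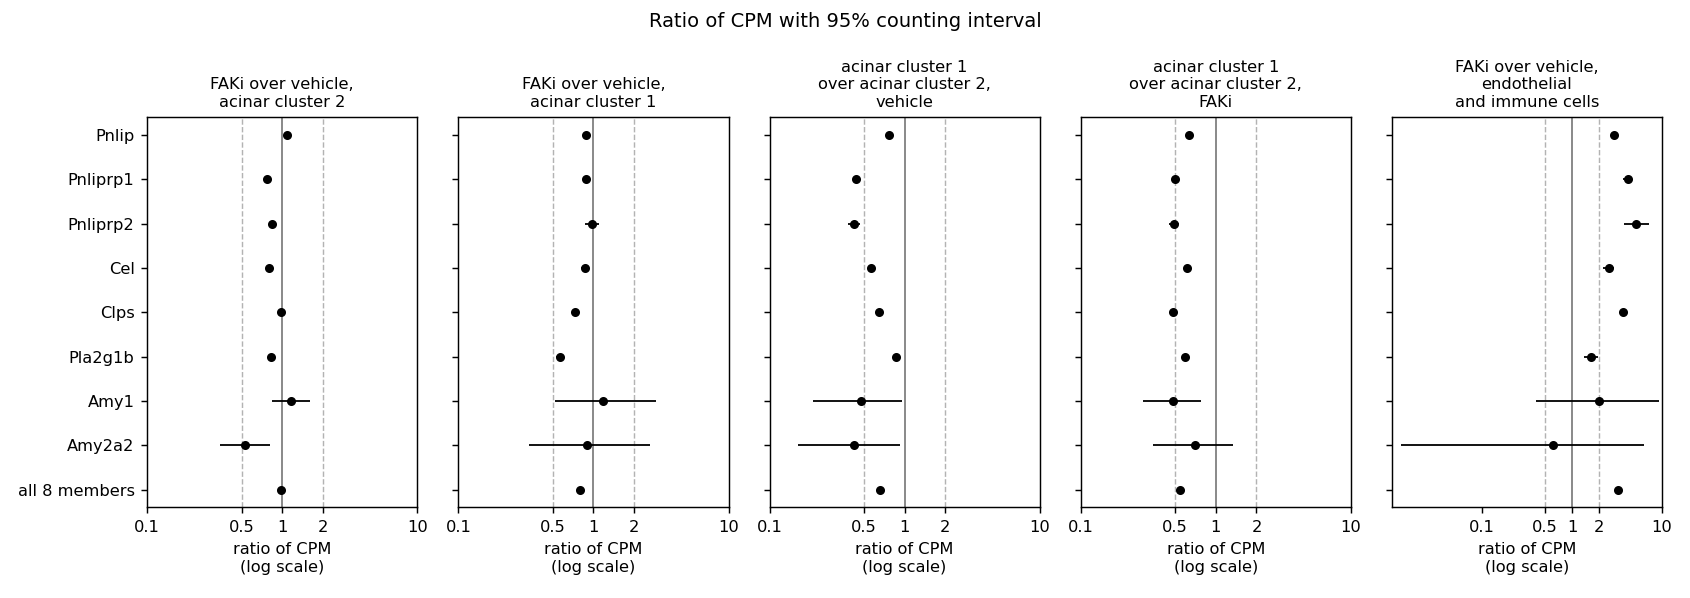
Ratio of CPM (log scale) for each of the 8 genes and their sum in 5 comparisons, with exact 95% counting intervals. The solid line marks 1 and the dashed lines 2-fold, and by these summed UMIs the lipases stay within 2-fold between libraries in the acinar clusters, while the 6 members with at least 100 UMIs lie above 1 in endothelial and immune cells with all droplets in.

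The summed level of the 8 genes differed more between the 2 acinar clusters than between the libraries, which did not hold for *Pla2g1b* in acinar cluster 1. The clusters had been drawn on these same cells, so the values describe them, and the β-cell markers differed between them as given above. In the vehicle library the summed level of acinar cluster 1 was 0.662 times that of acinar cluster 2 (0.655 to 0.669), and in the FAKi library 0.546 times (0.542 to 0.551). With the β-cell markers left out of the totals these were 0.780 and 0.723 times. Against the other secreted acinar proteins the sum differed little, with 26.0 (vehicle) and 25.4 (FAKi) UMIs per 100 in acinar cluster 2, next to 25.0 and 25.2 in acinar cluster 1. *Pnliprp1* stood at 0.436 (vehicle) and 0.499 times (FAKi) and *Pnliprp2* at 0.422 and 0.491 times, so these relatives of pancreatic lipase were lowest in acinar cluster 1 in the vehicle library among members with at least 100 UMIs. *Pnlip* itself stood at 0.767 and 0.629 times and *Cel* at 0.564 and 0.613 times. *Clps* went from 0.650 times in the vehicle to 0.484 times in the FAKi library, and *Pla2g1b* from 0.867 to 0.589 times.

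In the vehicle library 2 of 6 members with at least 100 UMIs (*Pnliprp1*, *Pnliprp2*) were past 2-fold lower, where 4.34% of 369 genes were, and 0 were past 2-fold higher, where 21.1% were. In the FAKi library 4 of 7 were lower (*Pnliprp1*, *Pnliprp2*, *Clps*, *Amy1*) against 6.17% of 567 genes, and 0 against 25.2% past 2-fold higher. Without the β-cell markers in the totals, of these 6 values only that of *Pnliprp2* in the vehicle library (0.498) stayed past 2-fold. Of the 22 other secreted proteins with enough UMIs, 21 were lower in acinar cluster 1 in each library, with medians of -0.59 (vehicle) and -0.93 (FAKi) on the log2 scale. Over the members with at least 100 UMIs the median was -0.72 (6 members) and -1.003 (7 members), and over all genes counted 0.20 and 0.36. With the 20 most abundant genes left out of the totals only, the summed ratio was 0.373 and 0.368.

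Single acinar cells showed a division among the members that the sums hide. In acinar cluster 2, *Pnlip* took a narrow share of a cell's UMIs, with a lowest, median and highest value of 2.89%, 5.47% and 7.87% in the vehicle and 2.47%, 5.76% and 8.83% in the FAKi library. *Clps* spread from 0.581% over 5.88% to 20.4% (vehicle) and from 0.460% over 4.602% to 15.5% (FAKi). The colipase transcript thus varied far more from cell to cell than that of its lipase in both libraries. All cells of both acinar clusters had a UMI of each of the 2 genes.

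As a percentage of *Pnlip* and *Clps* UMIs together, *Pnlip* had its quartiles at 30.6%, 46.5% and 63.7% in vehicle cells of acinar cluster 2 and at 35.1%, 54.5% and 70.6% in FAKi cells. The vehicle cells gathered at 2 places, with 18 cells between 20% and 30%, 15 between 30% and 40% and 19 between 60% and 70%, and 8 between 50% and 60%. Of the FAKi cells, 17 lay between 20% and 30%, 25 between 30% and 40%, 6 between 50% and 60%, 23 between 60% and 70% and 17 between 80% and 90%. Acinar cluster 1 had a single peak, with 76 of 161 vehicle cells between 50% and 60% and 113 of 297 FAKi cells between 60% and 70%. This pattern was chosen after the values were seen.

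**Figure D3:**
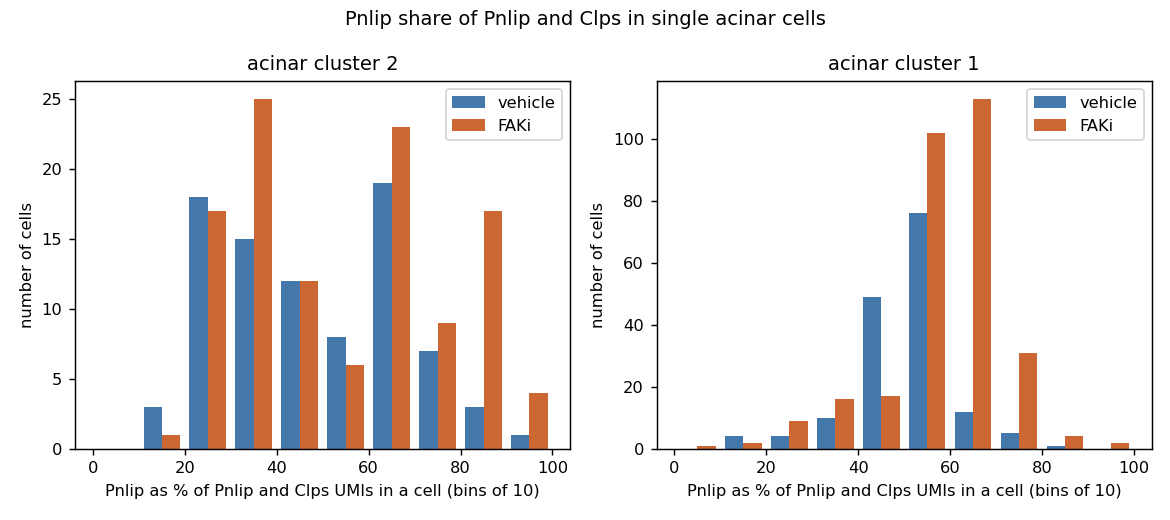
Number of acinar cells by the *Pnlip* share of *Pnlip* and *Clps* UMIs, in bins of 10 percentage points, for the vehicle and FAKi libraries. Acinar cluster 2 has a dip at 50 to 60% in both libraries (8 and 6 cells), whereas acinar cluster 1 has 1 peak that lies further right in the FAKi library.

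The other members took sides along the same division. Over the acinar cluster 2 cells, the share of *Clps* had a Spearman correlation of -0.52 (vehicle, 86 cells) and -0.58 (FAKi, 114 cells) with *Pnlip*, of -0.67 and -0.79 with *Cel*, of -0.34 and -0.70 with *Pnliprp1* and of -0.22 and -0.52 with *Pnliprp2*. *Pla2g1b* alone went with *Clps*, at 0.37 and 0.57. In both libraries, then, the lipase transcripts went against colipase, and phospholipase went with it. The lipases went together in the FAKi library, with correlations of *Pnlip* of 0.42 with *Pnliprp1*, 0.37 with *Pnliprp2* and 0.70 with *Cel*. In the vehicle library only *Cel* did so (0.54), with 0.080 for *Pnliprp1* and -0.0067 for *Pnliprp2*, and *Pla2g1b* did not oppose *Cel* (-0.033) or *Pnliprp2* (0.11). These are shares of the same total in cells of the same library, so some opposition is built in, and the correlations are a description.

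Among the other secreted proteins, chosen here after their values were seen, *Rnase1* (0.66 and 0.71) and *Spink1*, a trypsin inhibitor (0.48 and 0.58), went with *Clps*. *Cela2a* (-0.79 and -0.70), *Ctrl* (-0.76 and -0.87) and the carboxypeptidase *Cpa1* (-0.62 and -0.78) went against it. In cells over 3000 UMIs the correlation of *Clps* with *Pnlip* was -0.54 (77 cells) and -0.59 (94 cells), and with *Cel* -0.67 and -0.78. The *Pnlip* percentage had a negative correlation with depth, of -0.22 (vehicle) and -0.49 (FAKi) with total UMIs. In acinar cluster 2 of the FAKi library, the 20 cells of 1000 to 3000 UMIs had 2.74 *Pnlip* UMIs per *Clps* UMI (2.56 to 2.94), and the 44 cells over 10000 UMIs had 0.720.

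As shares of all UMIs, the opposition to *Clps* was not seen in acinar cluster 1, where that total also held much β-cell marker RNA. There *Clps* had correlations of 0.42 (vehicle, 161 cells) and 0.39 (FAKi, 297 cells) with *Pnlip*, and of 0.36 and 0.32 with *Cel*. In cells over 3000 UMIs these were weaker, at 0.084 (19 cells) and 0.31 (42 cells) with *Pnlip* and 0.22 and 0.10 with *Cel*. The *Pnlip* percentage of *Pnlip* and *Clps* does not rest on that total. In the same cells it correlated with *Cela2a* at 0.75 (vehicle) and 0.71 (FAKi), and with *Ctrl* at 0.69 and 0.65. With *Spink1* it stood at -0.13 and -0.53, and with *Rnase1* at -0.24 and -0.021. In acinar cluster 2 cells of that depth *Cela2a* stood at 0.81 and 0.72. Part of the division was thus seen in acinar cluster 1 too by this measure. The summed 8 genes took 11.3% (vehicle) and 7.63% (FAKi) of the median cell's UMIs, against 14.6% and 15.0% in acinar cluster 2. The plot of single cells shows the shift of acinar cluster 1 towards fewer UMIs in the FAKi library.

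**Figure D4:**
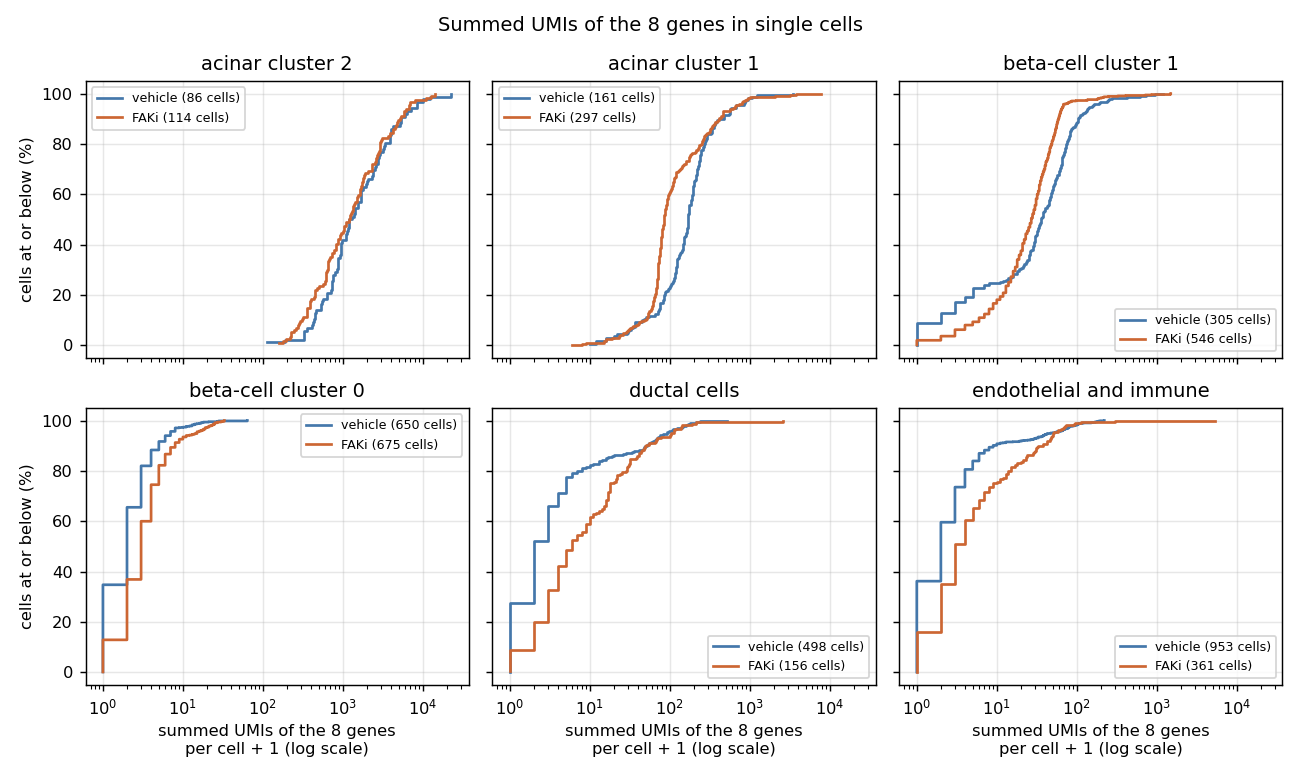
Percentage of cells (y axis) at or below a summed UMI count of the 8 genes plus 1 (x axis, log scale) in 6 groups of cells of the vehicle and FAKi libraries. Acinar cluster 2 curves nearly coincide (medians 1243 and 1200), acinar cluster 1 lies lower in the FAKi library (169 and 84), and endothelial and immune cells lie higher there (1 and 2).

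Macrophages, lymphocytes (T and B cells) and endothelial cells should not make these enzymes and were used to read free RNA, the transcripts that leak into droplets. Together they held 1058 CPM of the 8 genes in the vehicle library (1033 to 1083, 953 cells) and 3443 CPM in the FAKi library (3373 to 3515, 361 cells), a ratio of 3.25 (3.15 to 3.36). A single FAKi macrophage held 5300 of the 9164 UMIs, in which the 8 genes made up 21.5% of 24610 UMIs. That droplet was not marked by scrublet. Without it the ratio was 1.38, without the 1% of cells with the most UMIs of the 8 genes in each library 1.60, and in endothelial cells alone 1.64. Without the T cells, whose label the FAKi data go against, the ratio was 3.87 with the droplet and 1.51 without it, and without T and B cells 4.02 and 1.505. Most of the summed difference thus sat in 1 droplet, and what remained was a difference of under 2-fold.

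The median cell of these types had 1 UMI (vehicle) and 2 UMIs (FAKi) of the 8 genes. With each cell thinned to 1000 UMIs, 29.1% of 924 vehicle cells and 50.4% of 335 FAKi cells had a UMI, after 29 and 26 shallower cells were left out. Unthinned, *Pnlip* had a UMI in 42.1% (38.9 to 45.3) of the vehicle and 69.5% (64.5 to 74.2) of the FAKi cells, at median depths of 5186 and 4883 UMIs. Without T and B cells the thinned shares were 28.1% of 647 and 52.0% of 300 cells, and those of *Pnlip* 42.1% and 69.1% of 672 and 324 cells. Such shares in cells that should lack the gene were used as a reading of background outside the acinar clusters, and they were higher in the FAKi library. They do not give the background of every class. β-cell cluster 0 (50.9 CPM in vehicle, 93.1 in FAKi) and δ-cells (269 and 364 CPM) held less of the 8 genes than endothelial and immune cells did.

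Single members differed between libraries by unlike amounts in these cells. *Pnlip* stood at 444 CPM (vehicle) and 1314 CPM (FAKi) (2.96 times, 1.73 times without the macrophage droplet) and *Clps* at 418 and 1533 CPM (3.67 times, 1.01 times without it). *Pnliprp1* stood at 4.15 and 1.85 times, *Pnliprp2* at 5.18 and 2.50 times, *Cel* at 2.54 and 1.22 times and *Pla2g1b* at 1.62 and 0.817 times. Outside the droplet, colipase thus differed less between libraries than lipase did. Without the T cells as well, *Clps* stood at 1.08 times, *Pnlip* at 1.91, *Pnliprp1* at 1.90, *Pnliprp2* at 2.55, *Cel* at 1.35 and *Pla2g1b* at 0.875 times, and without T and B cells *Clps* at 1.10 and *Pnlip* at 1.91 times. In endothelial cells alone *Clps* stood at 416 CPM (396 to 437) in vehicle and 515 CPM (479 to 553) in FAKi cells, 1.24 times, and *Pnlip* at 2.07 times. Of 6 members with at least 100 UMIs, 5 were past 2-fold higher with the droplet in place, where 1.46% of 8677 genes were, and 0 past 2-fold lower, where 4.28% were. Of the other secreted proteins, 19 of 19 with enough UMIs were above the vehicle level and 15 past 2-fold, with that droplet in. With T and B cells left out and the droplet still in, 6 of 6 members were past 2-fold higher (*Pla2g1b* at 2.004), where 0.665% of 7669 genes were, and 16 of 18 secreted proteins. These counts rest on the droplet. Without it, 1 of 6 members (*Pnliprp2*) and 4 of 19 secreted proteins were past 2-fold higher, where 1.31% of 8670 genes were, and without T and B cells as well 0 of 5 members with at least 100 UMIs and 4 of 16 secreted proteins, against 0.431% of 7658 genes.

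The same kind of droplet stood out in other FAKi classes. In fibroblasts (63 cells) 1 droplet held 3037 of 4205 UMIs of the 8 genes, and the class stood at 7195 CPM with it and 2050 CPM without it. For ductal cells (156 cells) the figures were 2594 of 5501 UMIs, 2533 CPM and 1349 CPM. In macrophages (55 cells) the level was 11463 CPM with the droplet and 1091 CPM without it, next to 1021 CPM in the vehicle library. In the vehicle library the largest such droplet outside the acinar clusters and β-cell cluster 1 was a ductal cell with 516 UMIs. Whether these droplets were doublets with acinar cells was not tested beyond scrublet, which marked none of the 3 FAKi droplets of this paragraph.

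The ratio of the 2 most counted members differed between classes and between libraries. In the vehicle library there were 0.695 *Pnlip* UMIs per *Clps* UMI in acinar cluster 2 (0.688 to 0.702), 0.820 in acinar cluster 1 (0.802 to 0.839) and between 0.954 and 1.15 in the 12 other classes. In the FAKi library there were 0.763 in acinar cluster 2 (0.756 to 0.770), 0.990 in acinar cluster 1 (0.973 to 1.01) and 1.74 in endothelial cells (1.59 to 1.90). FAKi fibroblasts and macrophages were at 0.566 and 0.571 with their largest droplet and at 2.31 and 2.28 without it. In these classes the richest droplet thus had less *Pnlip* per *Clps* than the rest. It was not so in a number of other classes, where leaving out the richest droplet lowered the ratio. Among them were β-cell cluster 1 (to 1.09 in vehicle and 1.68 in FAKi) and FAKi endothelial cells (to 1.70). FAKi β-cell cluster 10 (1.86 to 1.74) and vehicle ductal cells (1.09 to 1.04) were others. Over all non-acinar cells with more than 200 UMIs of the 8 genes, the ratio was 1.39 in the vehicle (24 cells) and 0.805 in the FAKi library (18 cells).

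Without the largest droplet of each class, the 12 FAKi classes ranged from 1.07 (ductal cells) to 3.12 (B cells, 9 cells), and all but the ductal cells lay above the highest vehicle class, at 1.23. Without T and B cells the highest FAKi class was fibroblasts at 2.31 and the highest vehicle class stood at 1.14. All 12 classes of each library then lay above acinar cluster 2, at 0.707 (vehicle) and 0.745 (FAKi). Leaving out the largest droplet of acinar cluster 1 moved it from 0.820 to 0.906 (vehicle) and from 0.990 to 1.16 (FAKi). The shallowest acinar cluster 1 cells, up to 1000 UMIs, had 0.923 (0.822 to 1.04, 27 cells) in the vehicle and 1.43 (1.35 to 1.52, 89 cells) in the FAKi library.

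**Figure D5:**
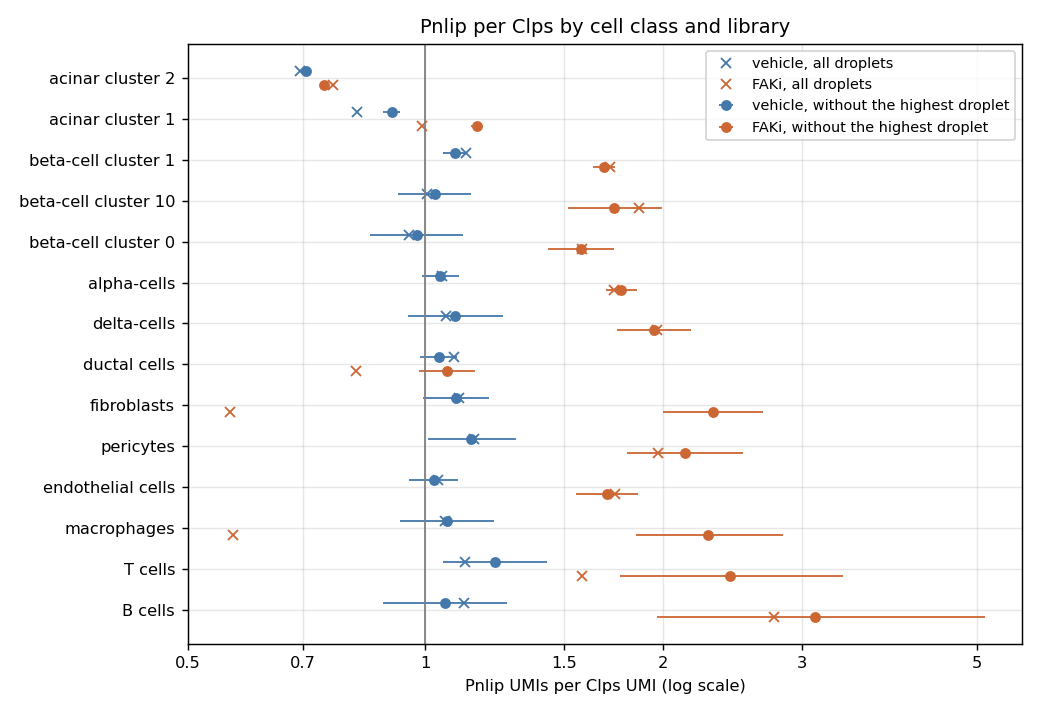
*Pnlip* UMIs per *Clps* UMI (log scale) in 14 cell classes of the vehicle and FAKi libraries. Crosses are all droplets and circles leave out the droplet with the most UMIs of the 8 genes (bars, exact 95% intervals), and outside the acinar clusters the vehicle circles lie near 1 and the FAKi circles, except ductal cells, at 1.57 or more.

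β-cell cluster 1 held more of these transcripts than any other class outside the acinar clusters of the vehicle library, with 2439 CPM there and 2009 CPM in the FAKi library. Its median cell had 35 and 26 UMIs of the 8 genes, against 1 and 2 in β-cell cluster 0, and the largest count in a cell was 1208 and 1494. *Pnlip* per *Clps* in β-cell cluster 1 was 1.13 (1.09 to 1.16) in the vehicle and 1.71 (1.66 to 1.77) in the FAKi library. In the FAKi library this overlapped the interval of endothelial cells and lay far from that of acinar cluster 2 as a whole. Shallow FAKi acinar cells lay on both sides of it. They stood at 1.43 in acinar cluster 1 (up to 1000 UMIs) and at 2.74 in acinar cluster 2 (1000 to 3000 UMIs). Against the other secreted acinar proteins, the 8 genes stood at 23.2 UMIs per 100 (vehicle) and 21.7 (FAKi) in β-cell cluster 1, and at 23.9 and 22.4 in endothelial cells. Doublets, free RNA and the cells' own transcripts cannot be told apart by these counts.

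Over the 28 profiles of class and library, the genes outside the members whose log2 level was most like that of the summed members were *Rnase1* (Pearson's r = 0.998), *2210010C04Rik* (0.998), *Prss2* (0.996), *Cpa1* (0.996) and *Sycn* (0.995). Without the 4 acinar profiles the values were 0.995, 0.993, 0.989, 0.987 and 0.989. The profiles share libraries, depth and free RNA, so this is a description. *Rnase1*, the gene most like the sum across classes, was among those that opposed *Pnlip* from cell to cell in acinar cluster 2 (-0.43 in vehicle and -0.53 in FAKi cells). Among the members, *Amy1* (0.855) and *Amy2a2* (0.840) were the least like the sum.

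*Amy1* was found in ductal cells of both libraries. There were 35 UMIs in 34 of 498 ductal cells of the vehicle library (5.60 CPM, 3.90 to 7.79) and 14 UMIs in 10 of 156 ductal cells of the FAKi library (6.45 CPM, 3.52 to 10.8). Endothelial and immune cells had 5 UMIs in 953 vehicle cells (0.757 CPM) and 4 in 361 FAKi cells (1.503 CPM). The ductal level was 7.40 times as high in the vehicle (2.89 to 24.2) and 4.29 times in the FAKi library (1.35 to 17.9).

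Against the UMIs of the other 7 members, *Amy1* was 6.79 times as frequent in ductal as in endothelial and immune cells of the vehicle library (2.65 to 22.2) and 5.84 times in the FAKi library (1.84 to 24.4). Both values rest on 5 and 4 *Amy1* UMIs in endothelial and immune cells, and the part of free RNA in the ductal counts was not tested. Of the 4 FAKi UMIs, 3 lay in the macrophage droplet described above. Without it 1 UMI was left (0.379 CPM), and the FAKi ductal ratio was 17.0 by CPM (2.59 to 719) and 9.86 against the other members (1.4996 to 417), intervals too wide to give a size. The richest FAKi ductal droplet held 3 of the 14 ductal UMIs, and without both droplets the ratios were 13.5 (1.96 to 580) and 14.7 (2.13 to 632). FAKi δ-cells (6 UMIs, 6.83 times, 1.62 to 32.9) and β-cell cluster 0 cells (5 UMIs, 5.06 times, 1.09 to 25.5) also had intervals above 1. The ratio against the other members was thus not particular to ductal cells there. By CPM these 2 classes were not raised, at 0.721 (0.171 to 3.47) and 0.137 times (0.0294 to 0.688) endothelial and immune cells. Without the macrophage droplet these CPM ratios were 2.86 (0.346 to 131) and 0.541 (0.0605 to 25.6). Against the other members and without that droplet, the interval of β-cell cluster 0 held 1 (0.955 to 404). With T and B cells left out of the comparison group and that droplet in, the ductal ratio was 6.29 (2.25 to 24.4) in the vehicle and 5.36 (1.68 to 22.4) in the FAKi library, that of FAKi δ-cells 6.27 (1.49 to 30.2) and that of β-cell cluster 0 4.64 (0.999 to 23.4), whose interval then held 1. The CPM ratios of ductal cells were then 6.98 (2.49 to 27.0) and 3.24 (1.02 to 13.5). Of the 34 vehicle ductal cells with *Amy1*, 29 (85.3%) had 5 or fewer UMIs of the other members, as did 6 of the 10 FAKi cells (60.0%). This was near the share in all ductal cells, of which 397 of 498 (79.7%) and 82 of 156 (52.6%) had so few. Among cells with so few, *Amy1* had a UMI in 7.30% of vehicle and 7.32% of FAKi ductal cells, against 2 of 829 (0.241%) and 1 of 247 (0.405%) endothelial and immune cells, at the unequal depths given next for the vehicle library. By share of cells, 6.83% of the vehicle ductal cells had an *Amy1* UMI (4.77 to 9.41, median depth 9546) and 0.525% of endothelial and immune cells (median depth 5186). Thinned to 1000 UMIs the gene was left in 1 ductal cell of each library and in 1 vehicle endothelial or immune cell, too few to compare shares at equal depth.

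The *Amy2a* copies did not share this pattern. *Amy2a2* had a UMI in 0 of 498 vehicle and 0 of 156 FAKi ductal cells, and 3 counts would give 0.602% and 1.92%, a limit on cells with a UMI and not on cells that express the gene. *Amy2a5* stood at 1.28 CPM in vehicle ductal cells and 1.36 CPM in endothelial and immune cells, and at 5.52 and 6.01 CPM in the FAKi library. In the latter, the macrophage droplet held 8 of the 16 endothelial and immune UMIs and the richest ductal droplet 6 of the 12 ductal UMIs, and without these droplets the levels were 2.79 CPM (1.02 to 6.06) in ductal cells and 3.03 CPM (1.31 to 5.98) in endothelial and immune cells. In acinar cells *Amy1* was far higher than in ductal cells, and its acinar level per UMI of the other members was the lower of the 2.

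The 250 bases before the RefSeq start (GRCm38.p6) were searched for CACCTG and TTTCCC, the E-box and TC-box of the element that the acinar factor PTF1 recognises, on both strands. RefSeq promoters were matched for 7 of the 8 members (2 starts for *Amy1*), and *Clps* had no entry. *Cel* had 4 CACCTG matches and 1 TTTCCC match, *Pnliprp2* had 1 CACCTG match and the other 5 had none. Of 32851 promoters, 17.2% held CACCTG, 21.9% TTTCCC and 3.61% both, and 14 held CACCTG 4 or more times. The *Cel* sequence is shown, at chr2:28563404-28563653 on the reverse strand, because it held the most matches among members. Capitals mark the matches, with CAGGTG and GGGAAA as the reverse complements.
Cel: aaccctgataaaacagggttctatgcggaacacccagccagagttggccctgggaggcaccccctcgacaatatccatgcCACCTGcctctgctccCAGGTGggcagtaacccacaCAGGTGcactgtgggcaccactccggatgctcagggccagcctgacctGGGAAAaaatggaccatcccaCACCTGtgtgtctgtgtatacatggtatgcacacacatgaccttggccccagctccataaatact
A match is a run of letters and no measured binding, and *Pnlip* and *Pnliprp1*, without a match in this window, had higher acinar levels than *Cel*.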

How the data were processed

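The authors made 1 droplet-based 3′ scRNA-seq library per condition, counted UMIs with Cell Ranger (build mm10) and set cell filters with Seurat 3.1. They normalized with scran, integrated with scanorama, clustered by the Louvain method and annotated cells from marker genes and references. The deposited table holds raw UMI counts, not normalized, and the deposited percent of mitochondrial counts per cell was computed by the authors, with a highest value of 8.00%. The gene annotation used for counting is not given in the sources used here. Of the gene names, 23 had been turned into dates, none a member.

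UMIs were summed by deposited class and library with python 3.11.15, numpy 2.4.6, scipy 1.17.1 and pandas 2.3.3. Scrublet in scanpy 1.11.5 marked 68 vehicle and 57 FAKi cells (seed 0). Genes needed 100 UMIs in the groups compared, and log2 ratios carry 1 CPM. Intervals were tested on simulated data in which 200 genes were changed 4-fold in each comparison. They held that change for 94% to 96.5% of these genes. The simulation gives no measure of variation between mice. Other scalings, cell filters, thinning and background subtraction were tried as alternatives. Named were all members, the 5 genes most like their sum and the 3 highest and lowest of each list. Members and lists were chosen with earlier results of these data known. Added after the values were seen were the leaving out of single droplets (for the amylases too), a trimmed background, cells over 3000 UMIs, totals without the β-cell markers and the leaving out of T and B cells.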

Additional observations from a re-analysis of the deposited data

Results flagged for a closer look

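Some members stood on opposite sides of the vehicle level in different classes, with counting intervals that excluded a ratio of 1 in each. The differences between classes were not tested, since each condition is 1 library. *Pnlip* was at 1.08 times the vehicle level in acinar cluster 2 and at 0.886 times in acinar cluster 1.

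In endothelial and immune cells the FAKi level was above the vehicle level and in acinar cluster 1 under it for the sum of the 8 genes (3.25 and 0.801 times) and for 5 of them. These were *Pnlip* (2.96 times, 0.886 in acinar cluster 1), *Pnliprp1* (4.15 and 0.875), *Cel* (2.54 and 0.862), *Clps* (3.67 and 0.734) and *Pla2g1b* (1.62 and 0.564). Without the FAKi macrophage droplet with 5300 UMIs of the 8 genes, *Pla2g1b* was at 0.817 times in endothelial and immune cells and *Clps* at 1.01 times, and without T cells as well at 0.875 and 1.08 times, so for *Pla2g1b* the opposition ended and for *Clps* the level was near that of the vehicle. Acinar cluster 1 held more β-cell marker RNA in the FAKi library (252089 CPM) than in the vehicle library (157425 CPM), and with those markers left out of the totals *Pnlip* (0.998), *Pnliprp1* (0.986) and *Cel* (0.971) were close to the vehicle level there.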

How the results depend on the processing

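No replicate could be left out in turn with 1 library per condition. No paired analysis was possible because each condition is 1 library. The summed ratios kept their direction under every alternative run. FAKi over vehicle in acinar cluster 2 (0.971) was 0.929 when each cell's CPM was averaged over cells, 0.985 with the 20 most abundant genes left out of the totals, 0.961 in cells under 5% mitochondrial counts, 0.931 thinned to 1000 UMIs, 0.920 in cells under 1000 detected genes and 0.962 with the mean background per droplet subtracted. In acinar cluster 1 (0.801) it was 0.772 as a mean over cells, 0.777 thinned, 0.728 with the background subtracted and 0.785 with a background without its top 1% of cells. With the 5 β-cell markers left out of the totals, it was 0.903, and acinar cluster 1 over 2 was 0.780 (vehicle) and 0.723 (FAKi). These last 2 settings and the leaving out of the macrophage, T cells or B cells were chosen after seeing the data.

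Acinar cluster 1 over 2 in the vehicle and FAKi libraries (0.662 and 0.546) was 0.638 and 0.530 as a mean over cells, 0.373 and 0.368 without the 20 genes, 0.687 and 0.566 under 5% mitochondrial counts, 0.695 and 0.580 thinned, 0.683 and 0.591 under 1000 genes, 0.643 and 0.487 with the background subtracted and 0.648 and 0.525 with the trimmed one.

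In endothelial and immune cells (3.25) the ratio was 2.31 as a mean over cells, 3.65 without the 20 genes, 3.71 without cells marked by scrublet, 3.11 under 5% mitochondrial counts, 2.34 thinned, 1.52 under 1000 genes, 1.64 in endothelial cells, 11.2 in macrophages, 1.60 without the top 1% of cells, 1.38 without the single macrophage, 3.87 without T cells and 1.51 without both, and without T and B cells 4.02 with that macrophage and 1.505 without it. It was 3.65 also without the β-cell markers. The values without the top 1% or the macrophage show that few droplets carried the main value.

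With a minimum of 20 UMIs, genes past 2-fold higher and lower numbered 153 and 75 in acinar cluster 2 (9 and 4 at 100 UMIs), 177 and 66 in acinar cluster 1 (8 and 5), 652 and 82 between clusters in the vehicle library (78 and 16), 1159 and 108 in the FAKi library (143 and 35) and 435 and 947 in endothelial and immune cells (127 and 371), since more low genes were counted.

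Of 402 single member ratios, 12 were counted as turned in direction, each with a main counting interval that excluded 1. *Pnliprp2* in acinar cluster 2 went to 1.06 as a mean over cells, 1.12 thinned and 1.06 under 1000 genes, and *Cel* to 1.04 under 1000 genes. *Pla2g1b* between clusters in the vehicle library went to 1.14 thinned, 1.01 under 1000 genes and 1.02 without the β-cell markers, and in endothelial and immune cells to 0.874 under 1000 genes, 0.934 without the top 1%, 0.817 without the macrophage, 0.875 without it and T cells and 0.916 without it, T and B cells. The cause of these was not tested. The count leaves out turns of the sparse *Amy1* and *Amy2a2* in endothelial and immune cells, where their main intervals held 1. *Amy1* was above the vehicle level (1.503 against 0.757 CPM) and under it without the macrophage (0.379 CPM). *Amy2a2* was under it (0.376 against 0.606 CPM) and above it in endothelial cells alone (0.665 against 0.529 CPM). *Amy1* and *Amy2a2* gave no value in endothelial and immune cells when thinned, under 1000 genes or in macrophages, for want of UMIs. Depth limits the amylases most, with 9 and 7 UMIs in the smallest acinar group.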
